A study of Bos taurus with 13 samples.

Results

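The miR-30 family was followed across extracellular vesicles (EVs) of bovine follicular fluid, the fluid that surrounds the oocyte in the antral follicle. The members were taken by name, and 6 miRNAs of the 5p arm qualified: bta-miR-30a-5p, bta-miR-30b-5p, bta-miR-30c, bta-miR-30d, bta-miR-30e-5p and bta-miR-30f. All 6 were listed in all 13 libraries, among 262 miRNAs listed for every group and 311 listed for any group. The 3p arm bta-miR-30b-3p was listed only for the transient cows at weeks 5 and 6.

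The animals were Holstein Friesian postpartum cows and heifers, and each library was made from 1 pool of follicular fluid. Transient cows (TCs) were in negative energy balance at weeks 5 and 6 after calving (3 pools) and in positive balance at weeks 9 and 10 (3 pools). Always negative cows (ANCs, 2 pools) and always positive cows (APCs, 2 pools) kept 1 energy status through the observed period and were sampled at weeks 5 and 6, and heifers (3 pools) had never calved and were in positive balance. Follicles were aspirated by ovum pick-up, the fluid was pooled, and EVs were collected by ultracentrifugation. How the animals of a group were divided among its pools is not given in the sources used here, so the p-values measure the spread between these pools and not between animals. The TCs of the later weeks may include cows sampled earlier. Among TCs, energy balance and week after calving changed together and cannot be told apart. In such bulk material, fewer vesicles of a cell type and less RNA per vesicle cannot be told apart.

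A miRNA is a short RNA that guides the silencing complex to messenger RNAs, mainly through its seed, the bases near its 5′ end. The miR-30 members share this seed, so they are expected to recognise largely overlapping targets, while the bases behind the seed set the members apart. The family is known from work on other tissues for restraining Snail-driven loss of epithelial character and, through Beclin 1, the start of autophagy. Its genes lie in pairs, and in the RefSeq annotation of the ARS-UCD2.0 assembly no other listed gene stood between MIR30D and MIR30B, between MIR30E and MIR30C or between MIR30A and MIR30F. The MIR30E and MIR30C pair lies within the protein-coding gene NFYC.

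The libraries held between 145030 and 421435 reads of listed miRNAs, with a median of 327359. These are whole reads recovered from the deposited values, and levels are given as CPM, read counts brought to 1 common library total, after TMM scaling of the 13 libraries together. A count of 3 reads, taken as the smallest visible amount, corresponded to between 7.9 and 19.0 deposited CPM. As a description, 8 miRNAs known from the ovarian follicle were taken, of which 7 were listed for all groups. Their summed level lay between 56211 and 196258 CPM. This sum includes bta-miR-21-5p and was not set against another tissue, so it does not test the label of the tissue. Of the lists for other cells, the 2 erythroid miRNAs listed for all groups summed to between 131 and 10962 CPM, the 6 leukocyte miRNAs to between 745 and 6077 CPM, and the 7 epithelial miRNAs to between 5150 and 32526 CPM. The liver miRNA bta-miR-122 lay between 329 and 17623 CPM, and 1 erythroid value, in ANCs, was at 0.

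The family took a small part of the EV miRNAs, and 3 of its members carried nearly all of it. The 6 members together made up between 0.713% (APCs replicate 1) and 2.76% (TCs weeks 9 and 10 replicate 3) of the listed reads, with a median of 1.48%. bta-miR-30d, bta-miR-30a-5p and bta-miR-30e-5p supplied between 97.7% and 99.2% of the family's reads in each library, and the other 3 members between 0.760% and 2.29%. As plotted by library, the composition of the family kept this form in all 5 groups.

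**Figure D1:**
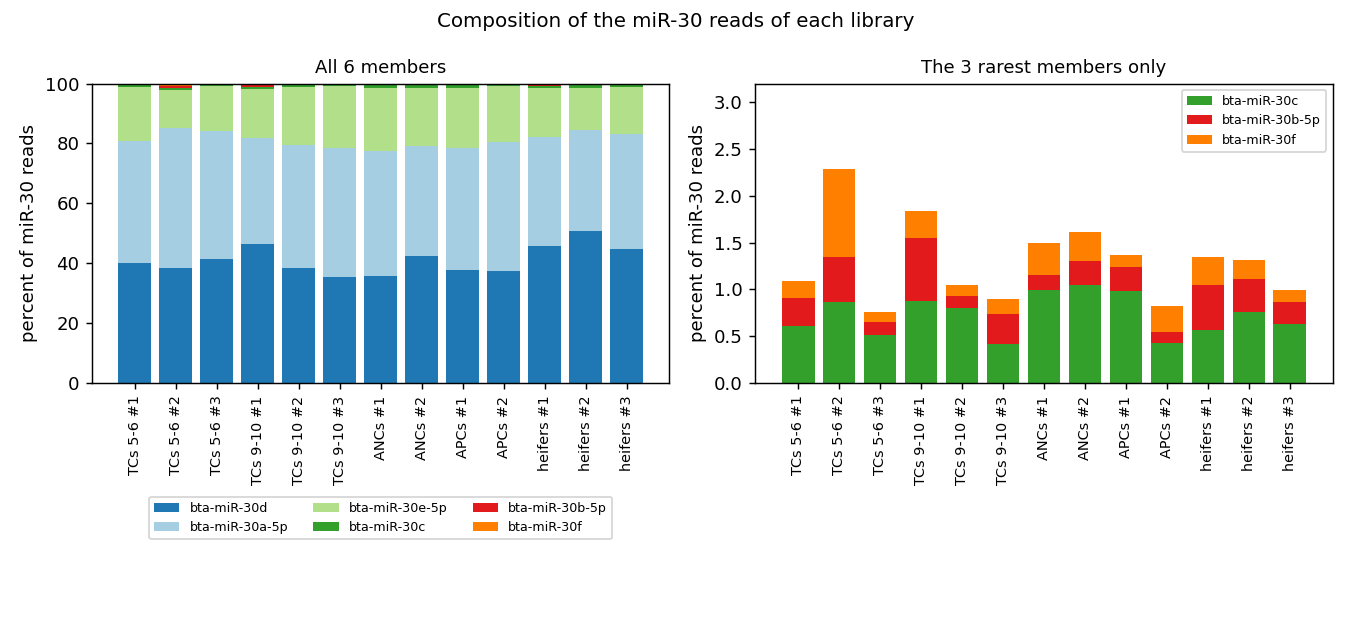
Percent of the miR-30 reads of each library (y axis) taken by each member in the 13 libraries (x axis, # marks the replicate), with all 6 members on the left and the 3 rarest alone, on a finer scale, on the right. bta-miR-30d has its highest shares, 50.8% and 46.5%, in heifers replicate 2 and TCs weeks 9 and 10 replicate 1, and bta-miR-30f is widest in TCs weeks 5 and 6 replicate 2.

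Over the 13 libraries the mean level was 6328 ± 1733 CPM for bta-miR-30d and 6225 ± 1934 CPM for bta-miR-30a-5p (SD, n = 13). These 2 neighbours in the order did not separate: bta-miR-30d was the higher in 5 of 13 libraries, and the ratio of its reads to those of bta-miR-30a-5p ran from 0.813 to 1.51. bta-miR-30e-5p followed at 2664 ± 745 CPM and was lower than bta-miR-30a-5p in 13 of 13 libraries, although its highest library, at 4697 CPM, lay above the lowest bta-miR-30a-5p library, at 3246 CPM. A wide step came next, since bta-miR-30c averaged 107 ± 27.8 CPM and was at least 14.6-fold below bta-miR-30e-5p in each library. bta-miR-30b-5p, at 46.1 ± 25.5 CPM, was below bta-miR-30c in 13 of 13 libraries. It did not separate from bta-miR-30f (42.5 ± 41.1 CPM), being higher in 8 libraries and equal in 1. All 6 are counted as whole mature molecules of nearly equal length, so their CPM can be set side by side without a length correction. The efficiency of ligation and the allowance of a mismatch in mapping may still weigh on levels between near-identical members.

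In each of the 3 gene pairs, 1 partner was abundant and the other scarce. bta-miR-30d had between 69.4 and 322 times the reads of bta-miR-30b-5p, with a median of 147. bta-miR-30a-5p had between 49.9 and 403.5 times the reads of bta-miR-30f (median 164), and bta-miR-30e-5p between 14.6 and 49.7 times those of bta-miR-30c (median 24.3). The abundant members ranked between 21st and 69th among the miRNAs of a library, and the scarce members between 142nd and 258th.

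The spread between libraries also differed among the members. The coefficient of variation over the 13 libraries was 26.1% for bta-miR-30c, 27.4% for bta-miR-30d, 28.0% for bta-miR-30e-5p and 31.1% for bta-miR-30a-5p. The median over the 247 miRNAs that passed the filter on low counts was 42.5%, and between 76.5% and 88.7% of these miRNAs varied more than each of the 4 members. bta-miR-30b-5p (55.4%) and bta-miR-30f (96.6%) varied more than the median, and both rested on few reads, from 4 to 32 and from 3 to 61 per library.

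**Figure D2:**
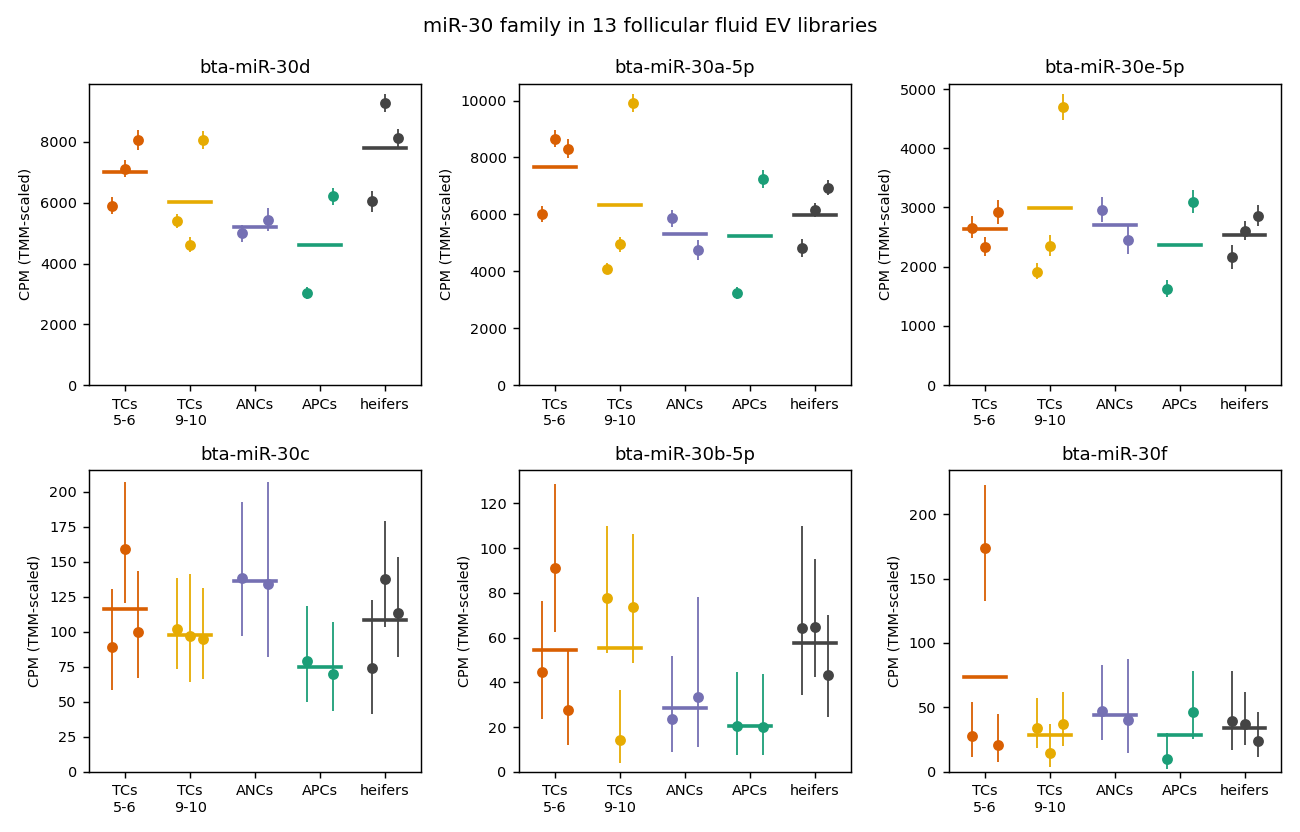
TMM-scaled CPM (y axis, linear, starting at 0 with its own range in each panel) of the 6 members in the 5 groups (x axis, weeks given for TCs), with 1 point for each library, a bar for the group mean and vertical lines for the 95% counting interval of the reads. The 2 APC libraries stand below the 3 heifer libraries for bta-miR-30b-5p, and 1 library of TCs at weeks 5 and 6 stands apart for bta-miR-30f at 174 CPM.

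bta-miR-30d had its highest mean in heifers, at 7816 CPM against 5962 CPM for bta-miR-30a-5p, while over the 10 cow libraries the order was the other way, at 5881 and 6303 CPM. It measured 6044, 9280 and 8124 CPM in heifers, 5894, 7117 and 8055 CPM in TCs at weeks 5 and 6, and 5401, 4619 and 8057 CPM in TCs at weeks 9 and 10. ANCs had 4992 and 5430 CPM, and APCs had 3033 and 6212 CPM. All 10 cow libraries lay below the heifer median of 8124 CPM, while 4 of them lay above the lowest heifer library, so the groups overlapped. Averaged over the 4 cow groups, the level was lower than in heifers by a log2 fold change of -0.48 (SE 0.26, 95% interval -1.06 to 0.09), and limma did not call this difference (adjusted p = 0.351). The exact two-sided permutation test of the 10 cow against the 3 heifer libraries gave p = 0.126, where the smallest attainable value was 0.0035. In the same comparison 5 of the 6 leukocyte miRNAs were called lower in cows (median log2 fold change of the list -1.37), as were 2 of the 7 epithelial miRNAs and bta-miR-122 (-2.16), and none of the 7 follicle or 2 erythroid miRNAs. Their part in the level of bta-miR-30d or in its ratio to other members was not tested.

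The RNA of the libraries had been measured on different days, a first day for replicate 1 and a second for replicates 2 and 3 of each group, except for APCs replicate 2, whose day was not determined. Within the first day, the 4 cow libraries had between 3033 and 5894 CPM of bta-miR-30d and the 1 heifer library had 6044 CPM. Within the second day, the 5 cow libraries had between 4619 and 8057 CPM and the 2 heifer libraries 8124 and 9280 CPM. The cow libraries of known day were thus below every heifer library of the same day, by small margins in both cases. APCs replicate 2, at 6212 CPM, was not placed and lay above the heifer library of the first day. This order rests on 1 heifer library on the first day and 2 on the second, and the order itself was not tested. The share of all miRNAs with this order was not counted. With the day in the model and APCs replicate 2 dropped from the fit, the log2 fold change was -0.48 and the adjusted p-value 0.294, again without a call.

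bta-miR-30a-5p, the other member of this abundance, showed no such order. It measured 4808.5, 6137 and 6941 CPM in heifers, and 6008, 8665 and 8313 CPM in TCs at weeks 5 and 6. The later TCs had 4093, 4941.5 and 9916 CPM, ANCs had 5859 and 4754 CPM, and APCs had 3246 and 7241 CPM. The heifer libraries lay inside the range of the cow libraries. The log2 fold change of cows against heifers was -0.02 (SE 0.31, 95% interval -0.70 to 0.66, exact permutation p = 0.955).

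Setting one of these members against the other within a library removes the scaling between libraries. In heifers, bta-miR-30d had 1.26, 1.51 and 1.17 times the reads of bta-miR-30a-5p. In cows, this ratio was 0.981, 0.821 and 0.969 for TCs at weeks 5 and 6, 1.32, 0.935 and 0.813 for TCs at weeks 9 and 10, 0.852 and 1.14 for ANCs, and 0.934 and 0.858 for APCs. Of the 10 cow libraries, 9 lay below the lowest heifer library, and the exception was TCs weeks 9 and 10 replicate 1. For that library the 95% counting interval of the ratio was 1.24 to 1.41. On the first day of RNA measurement the cow ratios ran from 0.852 to 1.32 against 1.26 in the heifer library, and on the second day from 0.813 to 1.14 against 1.17 and 1.51. The share of bta-miR-30d in the family was 47.2% ± 3.18 (SD, n = 3) in heifers and 39.3% ± 3.39 (SD, n = 10) in cows, and that of bta-miR-30a-5p 36.1% ± 2.39 and 41.3% ± 3.28. These ratios and shares are given as a description, and no test was made of them.

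**Figure D3:**
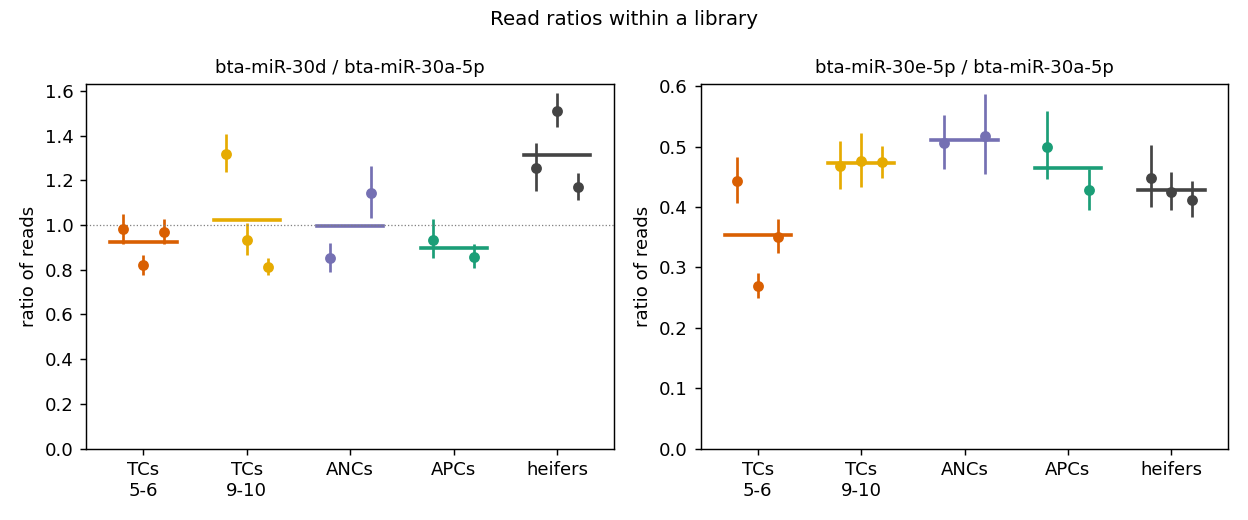
Ratio of the reads of bta-miR-30d (left) and bta-miR-30e-5p (right) to those of bta-miR-30a-5p in the same library (y axis, linear from 0) for the 5 groups (x axis), with 1 point for each library, vertical lines for the 95% counting interval and a bar for the group mean. The left ratio is over 1, the dotted line, in 3 of 3 heifer libraries and in 2 of 10 cow libraries, and the right ratio is lowest, at 0.269, in TCs weeks 5 and 6 replicate 2.

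bta-miR-30e-5p was not called in any comparison, with means of 2636 ± 292 CPM in the early TCs, 2988 ± 1495 CPM in the later TCs and 2541 ± 357 CPM in heifers (SD, n = 3). The means in ANCs and APCs were 2710 ± 358 and 2359 ± 1042 CPM (SD, n = 2). The log2 fold changes of this member ran from -0.17 to 0.30 over the 10 comparisons, with a lowest adjusted p-value of 0.708. The largest single value, 4697 CPM in TCs weeks 9 and 10 replicate 3, came from the library in which the whole family had its largest share. The ratio of bta-miR-30e-5p to bta-miR-30a-5p ran from 0.412 to 0.448 in heifers and from 0.269 to 0.517 in cows.

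The scarce members were led by bta-miR-30c, which was higher in both ANC libraries than in both APC libraries. ANCs had 139 and 134 CPM and APCs had 78.9 and 70.1 CPM, so the always cows did not overlap. TCs had 89.1, 159 and 99.6 CPM at weeks 5 and 6, and 102, 96.8 and 94.5 CPM at weeks 9 and 10, and these groups overlapped. Heifers, at 74.1, 137 and 113 CPM, covered most of that range. Between ANCs and APCs the log2 fold change was 0.86 (SE 0.45, 95% interval -0.28 to 2.01, limma adjusted p = 0.535), which was not called. With 44.4% of the 207 miRNAs tested there having groups that did not overlap, this separation is common with 2 pools against 2. Over all cows in negative against positive balance the log2 fold change was 0.51 (SE 0.26, 95% interval -0.07 to 1.09, adjusted p = 0.872). The exact permutation test of the 5 against 5 libraries gave p = 0.0635, with 0.00794 as the smallest value it can give, and 3 of the 5 libraries in negative balance lay above all 5 in positive balance. Without APCs replicate 2, the library with the lowest value, this log2 fold change was 0.40, and with the RNA day also in the model it was 0.33 (adjusted p = 0.888).

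bta-miR-30b-5p was the only member called in any comparison. It measured 64.2, 64.9 and 43.1 CPM in heifers, from 13, 26 and 16 reads, and 20.6 and 20.0 CPM in APCs, from 6 reads each. Both APC libraries were below all 3 heifer libraries, and 38.4% of the miRNAs in this comparison had groups that did not overlap, in either direction. The 95% counting intervals of the APC values reached 44.8 and 43.6 CPM, so that at this depth a single APC library could not be told from the lowest heifer library. limma gave a log2 fold change of -1.14 for APCs against heifers (SE 0.40, 95% interval -2.09 to -0.20, adjusted p = 0.211). A call required a log2 fold change of 1 or more in size, an unadjusted p-value below 0.05, and adjustment by Benjamini-Hochberg to no more than 0.25, a lenient limit.

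This was 1 call among 6 members, in a comparison where 12.4% of 233 miRNAs were called (29), of which 7, or 3.0% of those tested, were lower in APCs. edgeR and DESeq2, used on the recovered reads, called the same member, with log2 fold changes of -1.32 and -1.37. The study's own list of miRNAs that differed between APCs and heifers, made with edgeR, does not include bta-miR-30b-5p. The call was lost with the replicate number as a block (log2 fold change -1.29, adjusted p = 0.320) and in the fit of all 13 libraries (-1.28, adjusted p = 0.298). It was also lost when either APC pool was left out (-1.20 without replicate 1 and -1.10 without replicate 2, where the spread comes from heifers alone) or heifers replicate 1 or 2 (-1.07 and -1.05). Of the fits without 1 pool, it was kept only without heifers replicate 3 (-1.29), and the sign was the same in all 15 alternatives. The scaling matters here as well. With total-count scaling the median of all miRNAs moved by -0.57 in this comparison and 14 of 63 calls were higher in APCs, against 22 of 29 with TMM. Relative to the median of all miRNAs, bta-miR-30b-5p stood at -1.17 with TMM, -1.09 with total counts and -1.13 with the deposited values, of whose 49 calls 21 were higher in APCs.

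The level of bta-miR-30d in APCs against heifers was affected by the same shift. Its log2 fold change was -0.67 (SE 0.43, adjusted p = 0.469) with TMM and was not called. It was called with total-count scaling (-1.26, adjusted p = 0.110) and with the deposited values (-1.02, adjusted p = 0.203). Relative to the median of all miRNAs it was -0.70, -0.72 and -0.71 under the 3 scalings. Leaving out APCs replicate 2 also gave a call (-1.15, adjusted p = 0.226), while without APCs replicate 1 the value was -0.20. Each of these fits has a single APC library, which is assumed to vary as the heifer libraries do. The summed level of the 6 leukocyte miRNAs was 2144 to 3971 CPM in APCs and 4868 to 6077 CPM in heifers, with a median log2 fold change of -1.07 over the 5 tested and none of these called. The epithelial list had 2 of 7 called lower, and bta-miR-122 lay at 631 to 5858 CPM in APCs and 5369 to 17623 CPM in heifers. The part of these other cells in the levels of the miR-30 members was not tested.

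Elsewhere bta-miR-30b-5p had 44.6, 91.0 and 27.5 CPM in TCs at weeks 5 and 6, 77.8, 14.3 and 73.5 CPM in TCs at weeks 9 and 10, and 23.8 and 33.5 CPM in ANCs. The ANC values, from 6 and 5 reads, were also below all heifer values, and their log2 fold change of -0.81 (SE 0.48, 95% interval -1.92 to 0.29, adjusted p = 0.304) was not called. Both TC groups overlapped with heifers, with log2 fold changes of -0.20 and -0.26. APCs against TCs at weeks 5 and 6 gave -1.02 (SE 0.56, adjusted p = 0.993), with both APC libraries below all 3 TC libraries. Against all cows the difference to heifers was -0.67 (SE 0.46, 95% interval -1.67 to 0.34, exact permutation p = 0.262), and 6 of 10 cow libraries lay below every heifer library. Between ANCs and APCs, the member was not tested because its counts were under the filter.

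bta-miR-30f had 39.5, 37.4 and 24.3 CPM in heifers and between 10.3 and 47.5 CPM in 9 of the 10 cow libraries. TCs weeks 5 and 6 replicate 2 held 61 reads, or 174 CPM, with a 95% counting interval of 133 to 223 CPM. It was also the only library in which bta-miR-30f had more reads than bta-miR-30c (61 against 56), and the one with the highest levels of bta-miR-30b-5p and bta-miR-30c. None of the 9 comparisons in which bta-miR-30f was tested with limma called it, the lowest adjusted p-value being 0.714. For TCs at weeks 5 and 6 against heifers its log2 fold change was 0.47 (SE 0.74), and without that library it was -0.29.

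**Figure D4:**
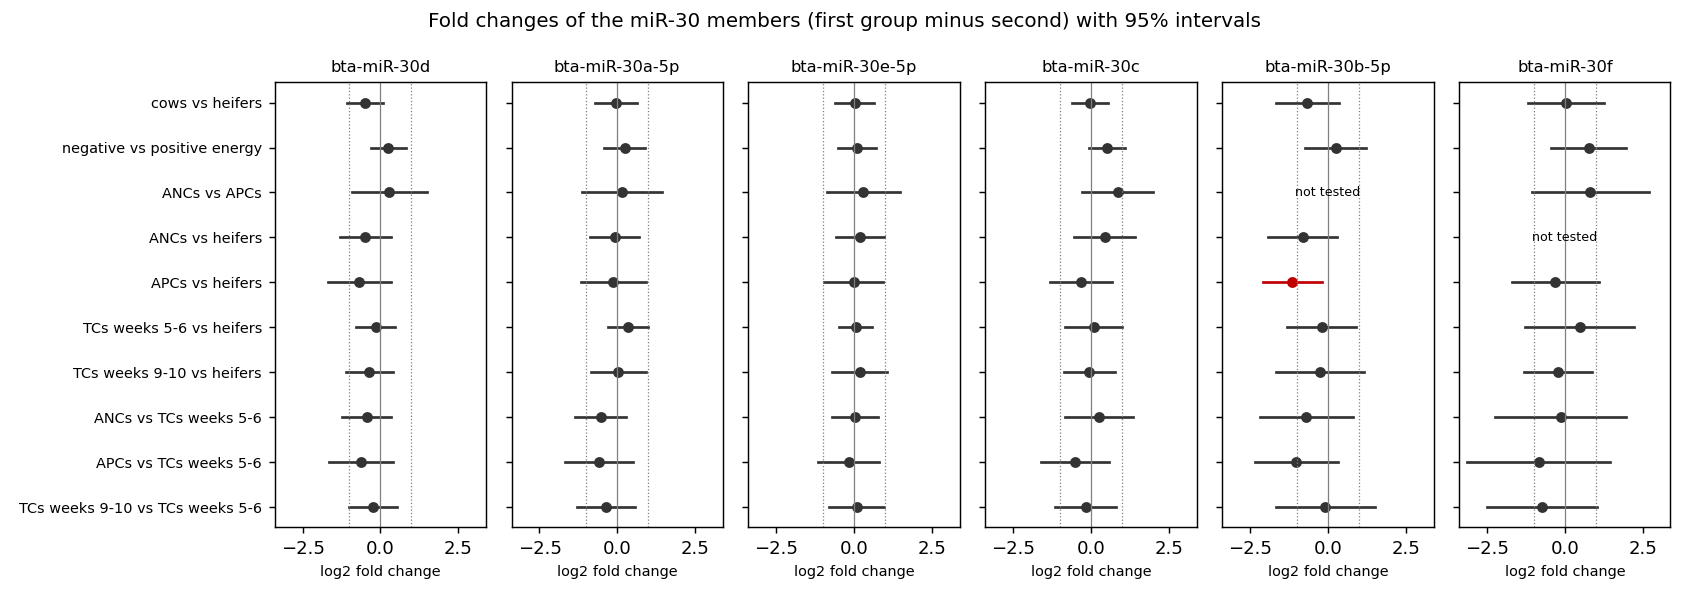
Log2 fold change (x axis, first group minus second) of each member in the 10 comparisons (rows), as points with 95% intervals from limma, and with dotted lines at -1 and 1. The value for bta-miR-30b-5p in APCs against heifers, at -1.14, is the only one called and is drawn in red, and 2 member values were not tested.

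As a group, the members passed the thresholds in 1 of the 58 member values tested over the 10 comparisons, and that value was also the only one with an unadjusted p-value under 0.05. edgeR and DESeq2 likewise called no member elsewhere. For ANCs against heifers, 0 of 5 members tested were called, in a comparison where 18.6% of all miRNAs were, and the median log2 fold change was -0.07 for the members and 0.00 for all miRNAs. In this comparison 2 of the 5 members, bta-miR-30b-5p and bta-miR-30d, did not overlap between the groups, as did 48.4% of all miRNAs. In APCs against heifers, all 6 values were below 0, with a median of -0.32 against 0.03 for all miRNAs. These values come from the same libraries, so the 6 signs are not independent. For TCs at weeks 5 and 6 against heifers, 0 of 6 members and 6.96% of all miRNAs (16) were called, 5.22% as lower in TCs, with medians of 0.07 and -0.03. The main fit there had no term for the replicate number, which was added as a block in an alternative. The block gave 29 calls among all miRNAs, the RNA day in the model gave 0, and neither called a member.

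For all cows against heifers, 0 of 6 members were called and 8.1% of 247 miRNAs (6.07% as lower in cows), with medians of -0.03 for both. No member had groups that did not overlap, against 4.45% of all miRNAs. The fold changes of the 6 members in that comparison reached from -0.67 to 0.03. TCs at weeks 9 and 10 against heifers gave no calls among the 6 members or the 227 miRNAs tested (0.0%), although 24 miRNAs (10.6%) and no member had an unadjusted p-value under 0.05. There, edgeR called 0 and DESeq2 15.

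Comparisons within cows addressed energy balance, which in TCs went together with the week after calving. The exact permutation test for energy balance exchanged libraries freely between TCs and always cows. In negative against positive balance all 6 member values were above 0, from 0.10 to 0.77, with a median of 0.25 against -0.04 for all miRNAs. None was called, against 0.405% of 247 miRNAs (1), none had an unadjusted p-value under 0.05, against 4.05%, and exact permutation p-values of single members ran from 0.0635 to 0.865. The mean CPM of bta-miR-30e-5p was lower in negative balance (2666 against 2737 CPM). The members share their libraries and the abundant ones vary together, so counts of signs do not add up independent results. The share of all miRNAs above 0 was not counted. ANCs against APCs showed 5 of 5 tested members above 0 (median 0.30, all miRNAs -0.01) without a call among members or all 207 miRNAs (0.0%), 17 of which (8.21%) had an unadjusted p-value under 0.05. edgeR called 0 and DESeq2 31. Without APCs replicate 1, 4 of the 5 values turned below 0, at -0.38 for bta-miR-30a-5p, -0.17 for bta-miR-30d, -0.12 for bta-miR-30e-5p and -0.02 for bta-miR-30f, while bta-miR-30c stood at 0.98.

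The TC times did not differ by a call in any member or any of 224 miRNAs (0.0%), with 12 (5.36%) at an unadjusted p-value under 0.05, 0 calls by edgeR and 24 by DESeq2. The member values for the later against the earlier TCs ran from -0.73 (bta-miR-30f) to 0.09 (bta-miR-30e-5p), and with total-count scaling, which moved the median of all miRNAs by 0.22, from -0.53 to 0.33. ANCs and APCs against TCs at weeks 5 and 6 also gave no calls (0.0% of 225 in each), where 18 (8.0%) and 6 (2.67%) reached an unadjusted p-value under 0.05, edgeR called 0 in each, and DESeq2 19 and 2. Against these TCs, bta-miR-30a-5p (-0.54, SE 0.34) and bta-miR-30d (-0.44, SE 0.33) did not overlap in ANCs, as 25.8% of all miRNAs did not. In APCs bta-miR-30b-5p and bta-miR-30c (-0.51, SE 0.45) did not overlap, against 15.6% of all. The comparisons with heifers share the heifer libraries, and those with TCs at weeks 5 and 6 share the TC libraries, so their values are not independent. The difference between the energy contrast of TCs and that of the always cows was tested as an interaction. It called 16.2% of 247 miRNAs and none of the 6 members, none of which had an unadjusted p-value under 0.05, with adjusted p-values of at least 0.506.

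Across the 13 libraries, bta-miR-30a-5p varied with each of the other abundant members by Pearson's r. Of 15 pairs, these 2 passed Benjamini-Hochberg adjustment at 0.05 for r, and no pair passed it for Spearman's rho. bta-miR-30a-5p and bta-miR-30e-5p had r = 0.832 (permutation p = 0.00039, adjusted p = 0.00585) and rho = 0.709 (permutation p = 0.00834, adjusted p = 0.0625). bta-miR-30a-5p and bta-miR-30d had r = 0.793 (permutation p = 0.00122, adjusted p = 0.00915) and rho = 0.758 (permutation p = 0.00374, adjusted p = 0.0561). Without the 2 libraries farthest from the median of bta-miR-30a-5p, TCs weeks 9 and 10 replicate 3 and APCs replicate 1, the coefficients were 0.647 and 0.626. As deviations from the group means they were 0.922 and 0.875. bta-miR-30d and bta-miR-30e-5p had r = 0.636 (permutation p = 0.0230, adjusted p = 0.102), which did not pass, and 0.807 as deviations.

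The genomic partners, by contrast, had lower coefficients. bta-miR-30d and bta-miR-30b-5p had r = 0.543 (permutation p = 0.0518, adjusted p = 0.144), bta-miR-30a-5p and bta-miR-30f r = 0.491 (permutation p = 0.0857, adjusted p = 0.184), and bta-miR-30e-5p and bta-miR-30c r = 0.072 (permutation p = 0.821, adjusted p = 0.821). The scarce partner of each pair rests on few reads, which adds counting error to these values. bta-miR-30b-5p and bta-miR-30f had r = 0.582 over all libraries, and 0.271 without TCs weeks 5 and 6 replicate 2 and TCs weeks 9 and 10 replicate 2. The libraries share their scaling, and with total counts every one of the 15 coefficients was higher than with TMM, the lowest being 0.336.

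**Figure D5:**
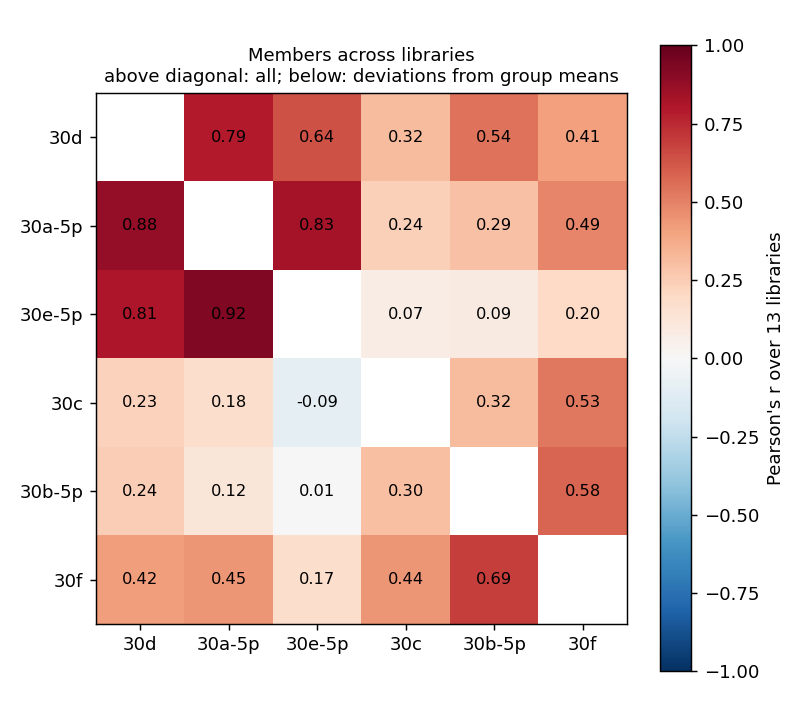
Pearson's r of log2(CPM + 5) for each pair of members over the 13 libraries, above the diagonal for all libraries and below it for deviations from the group means, with blue for negative and red for positive values. The values among bta-miR-30d, bta-miR-30a-5p and bta-miR-30e-5p run from 0.636 to 0.922, bta-miR-30b-5p with bta-miR-30f has 0.582 above and 0.695 below the diagonal, and bta-miR-30c with bta-miR-30e-5p lies near 0.

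Among the 246 other miRNAs that passed the filter, the pattern of bta-miR-30d over the 13 libraries was most like that of bta-miR-30a-5p (r = 0.793), bta-miR-34a (r = 0.777) and bta-miR-342 (r = 0.681). bta-miR-30e-5p came 6th for bta-miR-30d. The pattern of bta-miR-30b-5p was most like that of bta-miR-191 (r = 0.727), bta-miR-339a (r = 0.707) and bta-miR-140 (r = 0.695), and its closest family member, bta-miR-30f, came 17th. These coefficients are a description over libraries that share depth and scaling.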

How the data were processed

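Small RNA of EVs was sequenced from 13 pools. The authors isolated EVs by ultracentrifugation, extracted RNA with a Norgen exosomal kit, prepared QIAseq miRNA libraries, trimmed with Cutadapt 1.11, mapped with Bowtie2 2.2.2 to UMD3.1, annotated against miRBase and normalized by TMM. The deposited values are TMM-normalized CPM. Where a library's deposited values total more than plain CPM can, the column was treated as a signal. Reads were recovered from the steps between values, and all 3681 values came out whole within 0.1 read. Groups came from the labels. limma 3.58.1 with a trend was fitted to log2(CPM + 5) after TMM (edgeR 4.0.16) and filterByExpr (10 and 15 counts), in 8 comparisons of 2 groups and in 2 contrasts of a fit of all 13 libraries. Fold changes are on that scale, which understates low members. p-values were adjusted over all miRNAs tested. Counting intervals are exact (95%, Poisson or binomial), and like the floor of 3 reads cover counting error only. Correlations used 100000 resamples. The scripts were tested on simulated data. DESeq2 1.42.0, edgeR's quasi-likelihood test and other settings were alternatives.

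Same-numbered pools of TCs at weeks 5 and 6 and of heifers correlated in their deviations from the group means (r = 0.216, 0.377 and 0.385). These pools hold different animals and shared a day of RNA measurement, and the part of that day in the correlation was not tested. The main fits had no term for the replicate number. A block on that number was an alternative in each comparison. The text names all family members and the 3 miRNAs with the highest r with bta-miR-30d and with bta-miR-30b-5p. Members and lists were chosen with earlier results of these data known. The day of RNA measurement came from the study's supplementary material. Mature sequences are not used here.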

Additional observations from a re-analysis of the deposited data

Results flagged for a closer look

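Over the 10 cow libraries, 2 members had a library far from the others by the gap between the outermost value and its neighbour, compared with the whole range. bta-miR-30f measured 174 CPM in TCs weeks 5 and 6 replicate 2, where the next cow library had 47.5 CPM and the gap took 0.772 of the range. bta-miR-30e-5p measured 4697 CPM in TCs weeks 9 and 10 replicate 3, where the next had 3096 CPM and the gap took 0.521 of the range. The limit for 10 libraries is 0.466, and 6 members were examined, each at its highest and its lowest value. Chance alone passes this limit in about 1 of 20 groups if the values come from a single normal distribution. The values here are CPM without a log scale and come from different cow groups, so that rate may not hold. In the same library bta-miR-30a-5p also had its highest level, at 9916 CPM, and it was not set apart.

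bta-miR-30b-3p, the partner arm of bta-miR-30b-5p, stood outside all comparisons because it was listed only for TCs at weeks 5 and 6. It had 4 reads in replicate 3, 1 read in replicate 1 and 0 reads in replicate 2, and only the first is over the 3 reads that a count of 0 allows.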

How the results depend on the processing

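The number of members called was 0 under every alternative that was run, in each comparison except APCs against heifers. There it was 1, and it became 2 with total-count scaling and with the deposited values, 0 with the replicate block and 0 with all 13 libraries in 1 fit, and 0 to 1 when single pools were left out. Those changes concern bta-miR-30b-5p and bta-miR-30d, whose values stand in the report. The block changed no other call of a member. bta-miR-30b-5p in APCs against heifers stayed called in 9 of 15 alternatives, with log2 fold changes from -1.64 to -1.01 and adjusted p-values from 0.0920 to 0.625. bta-miR-30d in all cows against heifers was not called in any of 24 alternatives, with log2 fold changes from -0.63 to -0.32. Of 1014 alternative member values, 95 had the other sign than the main value, and none of these was called. The largest main value among them was 0.85 in size and the lowest unadjusted p-value 0.201. Among all miRNAs, the count called moved by over 1.5 times in several comparisons. The block gave 28 for ANCs against APCs (from 0), 65 for ANCs against heifers (from 40), 7 for TCs at weeks 9 and 10 against heifers (from 0), 2 for ANCs against TCs at weeks 5 and 6 (from 0) and 0 for energy balance (from 1). DESeq2 gave 37 for TCs at weeks 5 and 6 against heifers (from 16), and total-count scaling 26 there and 6 for the later TCs. The fit of all 13 libraries gave 4 for the later TCs against heifers. Without single pools the counts ran from 0 to 54 for ANCs, 3 to 48 for APCs, 0 to 46 for the earlier TCs, 0 to 25 for the later TCs and 0 to 35 for all cows, each against heifers. They ran from 0 to 36 for ANCs against APCs, 0 to 7 and 0 to 4 for ANCs and APCs against the earlier TCs, 0 to 22 between TC times and 0 to 4 for energy balance. Where a group of 2 pools lost 1, the single pool is assumed to vary like the other group. Calls that were higher went from 14 of 40 to 4 of 45 with the deposited values and 9 of 38 with DESeq2 size factors for ANCs against heifers, and from 4 of 16 to 6 of 13 with those factors for the earlier TCs. Total-count scaling moved the median of all miRNAs by 0.40 for ANCs against APCs, by -0.21 and -0.14 for the earlier TCs and all cows against heifers, and by 0.23 and -0.26 for ANCs and APCs against the earlier TCs. The deposited values moved it by -0.25 for ANCs against heifers. The mean shares of bta-miR-30d and bta-miR-30a-5p moved by less than their spread in all alternatives run. The RNA day was not run for comparisons of 2 groups with APCs. Its fit for the pooled comparisons, which called 13 miRNAs for all cows against heifers (from 20) and 2 for energy balance, was chosen after seeing the data. Depth limits the scarce members: for 6 reads, as bta-miR-30b-5p had in each APC library, the counting interval is 2.2 to 13.1 reads.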
